A study of Danio rerio with 12 samples.

Results

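Macrophage marker genes were followed in RNA-seq libraries of adult zebrafish hearts. The markers were chosen by symbol as mpeg1.1, mpeg1.2, mfap4, csf1ra, csf1rb, marco, grn1, spi1b, irf8 and havcr1. These 10 symbols matched 18 of the 32520 genes counted, and 13 of the 18 had enough counts to be tested. Of the 13, csf1rb, grn1, mpeg1 ENSDARG00000043093 and mfap4 ENSDARG00000090557 had under 10 counts in some libraries and passed the filter through the groups where they were higher, so the number of higher calls among tested genes is a description. The hearts came from mvp mutant fish, in which CRISPR-Cas9 had removed the whole coding region of the major vault protein gene, and from wild type (WT) fish. Each genotype was collected after resection of the ventricle apex, at 7 days post amputation (7dpa), or after sham surgery. The 4 groups were therefore mvp mutant 7dpa, mvp mutant sham, WT 7dpa and WT sham, with 3 libraries in each, made from ventricle tissue below the plane of surgery. The fish had the AB background, and the mutants belong to a single deletion line. How hearts were divided among the libraries is not given in the sources used here, so the spread between libraries may not measure the spread between animals.

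Macrophages are phagocytes that take up dead cells and debris, present antigen and release signals to other cells. They arise from myeloid progenitors under transcription factors such as Spi1 (PU.1) and Irf8, and they depend on signals through the Csf1 receptor. In the injured zebrafish heart they gather at the wound, where they are known to take part in clearance, scarring and regrowth. The libraries are bulk samples, so fewer macrophages in a heart and less of a transcript in each macrophage cannot be told apart. Marker RNA from other cells cannot be told from that of macrophages either.

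Most symbols named a single gene, but 2 did not. The table of gene names gave MPEG1 to 3 Ensembl genes without telling mpeg1.1 from mpeg1.2, and MFAP4 to 8. They are written here as mpeg1 or mfap4 with the last digits of the identifier. Nearly all mpeg1 counts fell on ENSDARG00000055290, whereas ENSDARG00000078569 had 0 counts in 11 of 12 libraries and 1 in the other. The symbol grn1 was matched to grna.1 (ENSDARG00000089362) by its RefSeq synonym. RefSeq's GRCz12tu assembly lists 3 mpeg1 genes and 13 mfap4 genes, each family on 1 chromosome, with up to 6 mfap4 genes in an unbroken row. The sequences of the copies were not compared. Any reads shared by copies of a family, or by grn1 and its granulin relatives, may have been split or lost in counting, so values of single copies are uncertain.

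The libraries held 21356163 to 26684651 counts, and 3 counts, taken as a floor, stood for 0.0955 to 0.161 CPM (counts scaled by library size). The targeted gene had 429 to 475 counts in mvp mutant 7dpa and 91 to 108 in mvp mutant sham libraries, against 3444 to 5405 in WT 7dpa and 3346 to 4384 in WT sham libraries. The source of the counts left in mvp mutant libraries, higher at 7dpa than after sham surgery, was not tested. Replicate 1 of the WT 7dpa group stood apart from replicates 2 and 3. Its counts differed from theirs by a chi-square of 94.4 and 97.7 per gene, against 2.21 to 10.9 for every other pair of libraries within a group. The numbers of markers called are also given without it, whereas most values of single genes are given with it.

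Marker RNA was more abundant after injury in both genotypes, with the larger rise over sham levels in WT hearts. The summed CPM of the 18 genes was 312, 297 and 312 in mvp mutant 7dpa libraries, against 123, 113 and 119.6 in mvp mutant sham libraries. In WT hearts the sum was 217, 800.1 and 788 CPM at 7dpa, against 50.3, 51.6 and 52.1 CPM after sham surgery. The mvp mutant sham libraries therefore started above the WT sham libraries, with no overlap. The mvp mutant 7dpa libraries lay above WT 7dpa replicate 1 and below replicates 2 and 3. Without grn1, which had the widest range, the sums were 227 to 237 CPM in mvp mutant 7dpa, 105 to 115 CPM in mvp mutant sham, 191 to 501 CPM in WT 7dpa and 49.95 to 51.9 CPM in WT sham libraries.

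**Figure D1:**
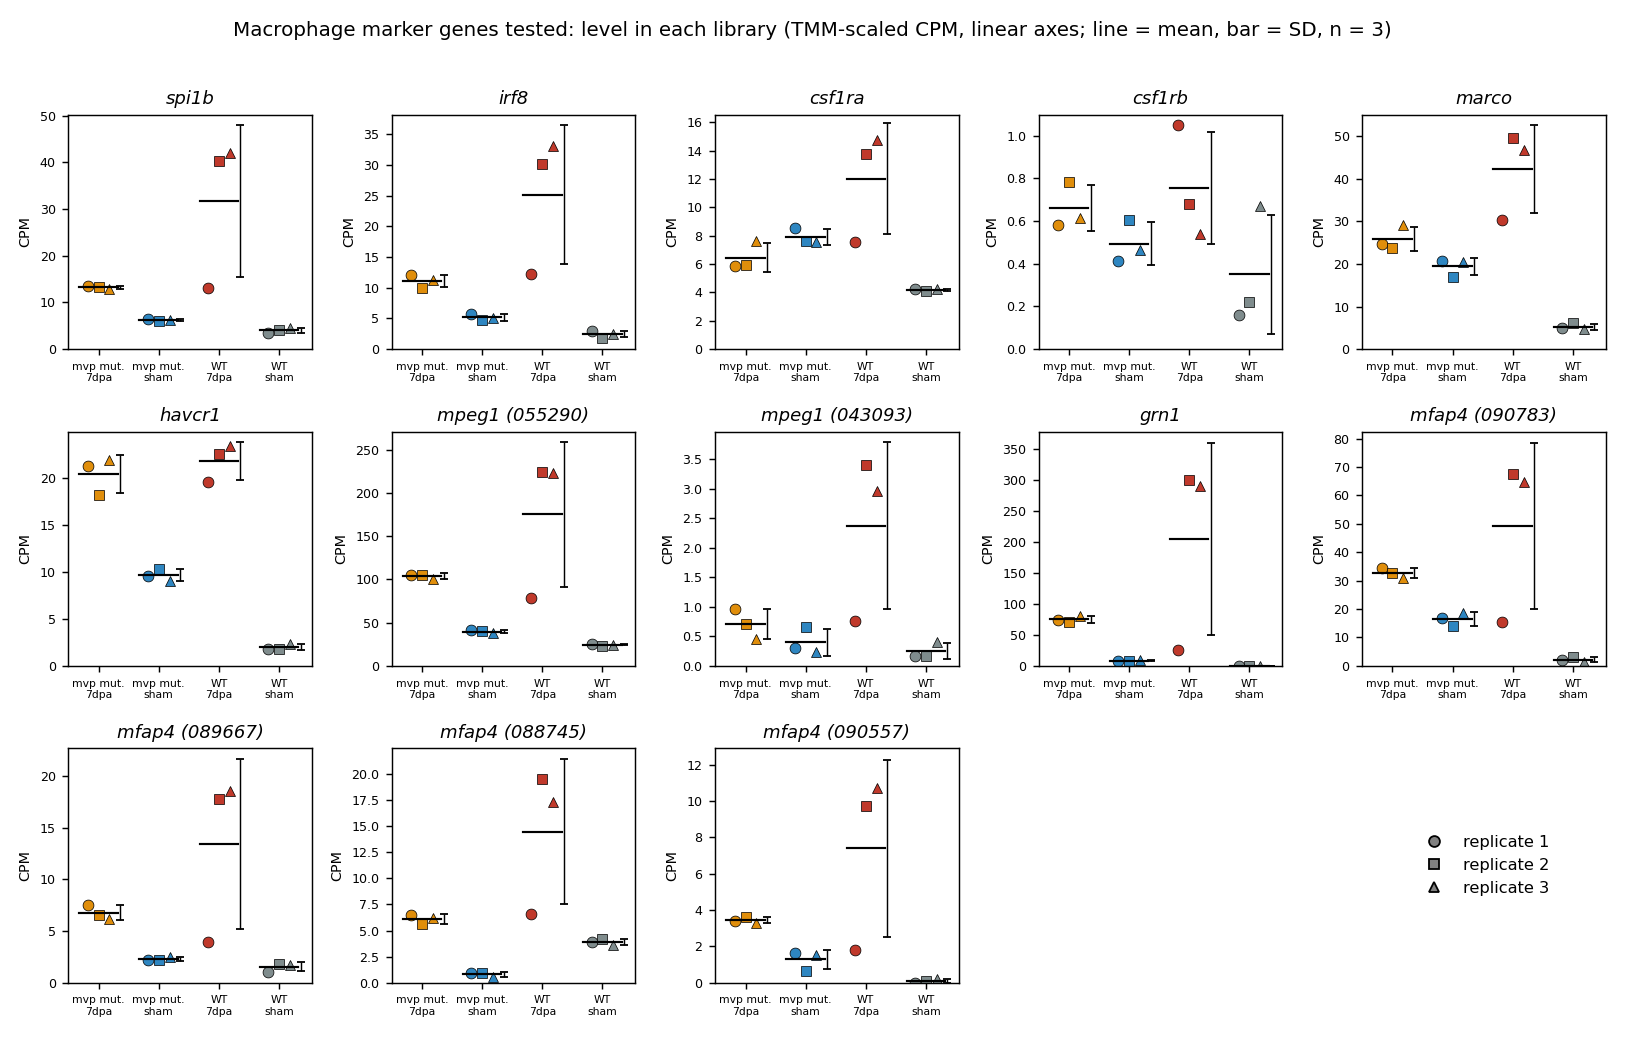
Level of each of the 13 tested marker genes in every library, as CPM on linear axes that start at 0. Points are libraries, lines are means and bars are SD (n = 3 for each group). For 12 of the 13 genes replicate 1 of WT 7dpa is the lowest of its group, and csf1rb is the exception.

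In WT hearts all 13 tested markers had higher levels at 7dpa than in sham hearts by edgeR's quasi-likelihood test at an adjusted p under 0.05. Over all genes tested, 31.6% were called higher and 27.8% lower in this comparison. The median log2 fold change of the markers was 3.12, against 0.01 over all genes. The single values ran between 1.11 for csf1rb and 9.76 for grn1. For 12 of the 13 genes every 7dpa library was above every sham library, which held for 30.8% of all genes. Without WT 7dpa replicate 1, 12 markers were called higher, csf1rb being the one lost, and 35.2% of all genes were.

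In mvp mutant hearts 7 of 13 tested markers had higher levels at 7dpa than in sham hearts, where 12.9% of all genes were called higher and 13.4% lower. These were grn1, mfap4 (ENSDARG00000088745 and ENSDARG00000089667), mpeg1 (ENSDARG00000055290), irf8, havcr1 and spi1b. Their median over the 13 genes was 1.09 on the log2 scale, against 0.02 over all genes. For 10 of the 13 genes the groups did not overlap, which held in this direction for 26.3% of all genes. The number called was 4 without mvp mutant sham replicate 2, mvp mutant sham replicate 3 or mvp mutant 7dpa replicate 1, and 5 without mvp mutant sham replicate 1 or mvp mutant 7dpa replicate 2. Without WT 7dpa replicate 1, 10 markers were called higher and 1, csf1ra, lower, with 20.8% of all genes called higher and 20.4% lower.

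The sham-operated hearts already differed. In mvp mutant sham hearts 7 of 13 markers were higher than in WT sham hearts (csf1ra, grn1, havcr1, irf8, marco and the mfap4 copies ENSDARG00000090557 and ENSDARG00000090783) and 1 was lower (mfap4, ENSDARG00000088745). Of all genes, 25.3% were called higher and 24.2% lower. Grn1 and mfap4 ENSDARG00000090557 passed the filter through groups other than WT sham, so the number called higher is a description. For 10 of the 13 genes every mvp mutant sham library was above every WT sham library, which held for 31.8% of all genes. The markers' median was 0.92 on the log2 scale, against 0.00 over all genes. Main mpeg1 and spi1b did not pass the test with all libraries. They passed when the sham groups were fitted alone, with log2 fold changes of 0.69 and 0.63 (edgeR adjusted p = 1.21e-07 and 0.000696). That fit called 11 of the 11 markers it tested, with mfap4 ENSDARG00000088745 lower. It also called 9281 of 15097 genes in either direction. The fit without WT 7dpa replicate 1, in which the groups share 1 estimate of spread, called 10 higher, main mpeg1 and spi1b among them, and 1 lower, with 29.6% of all genes called in each direction.

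At 7dpa the direction was the other way. In mvp mutant hearts 6 of 13 markers were lower than in WT hearts (csf1ra, irf8, marco, spi1b, mfap4 ENSDARG00000088745 and mpeg1 ENSDARG00000043093). Of all genes, 10.6% were called lower and 8.94% higher. The median of the 13 was -0.99 on the log2 scale, against -0.02 over all genes. Irf8, marco and mfap4 ENSDARG00000088745 were the 3 of 13 with every mvp mutant library below every WT library, which held for 16.4% of all genes. Without WT 7dpa replicate 1 the number called lower was 11 of 13, with 20.2% of all genes called lower. When the model was fitted to the 2 groups alone, with that library in it, 0 markers passed the edgeR test (lowest adjusted p = 0.0625), 6 had an unadjusted p under 0.05, and DESeq2's Wald test on all libraries called 6 of the 13, besides mfap4 ENSDARG00000116066, which edgeR did not test. The fit to the 2 groups alone called 1403 of 16012 genes in either direction.

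The response to injury was smaller in mvp mutant than in WT hearts for 9 of 13 markers, by the test of the difference between both log2 fold changes (the interaction). The 9 were csf1ra, grn1, havcr1, irf8, marco, spi1b, main mpeg1 and the mfap4 copies ENSDARG00000090557 and ENSDARG00000090783. Grn1 and mfap4 ENSDARG00000090557 had few counts in WT sham libraries and passed the filter through other groups. The number called is therefore a description. Of all genes, 19.9% had a called difference in this direction and 15.2% in the other, and the markers' median difference was -2.27 against -0.03 over all genes. Of the 9, csf1ra, irf8 and marco were called both higher in mvp mutant sham hearts and lower in mvp mutant hearts at 7dpa. Grn1, havcr1 and both mfap4 copies were called in the sham comparison alone, spi1b in the 7dpa comparison alone and main mpeg1 in neither. Without WT 7dpa replicate 1, 12 markers were called, 11 of them with a smaller response in mvp mutants, with 28% of all genes called in that direction and 21.9% in the other.

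**Figure D2:**
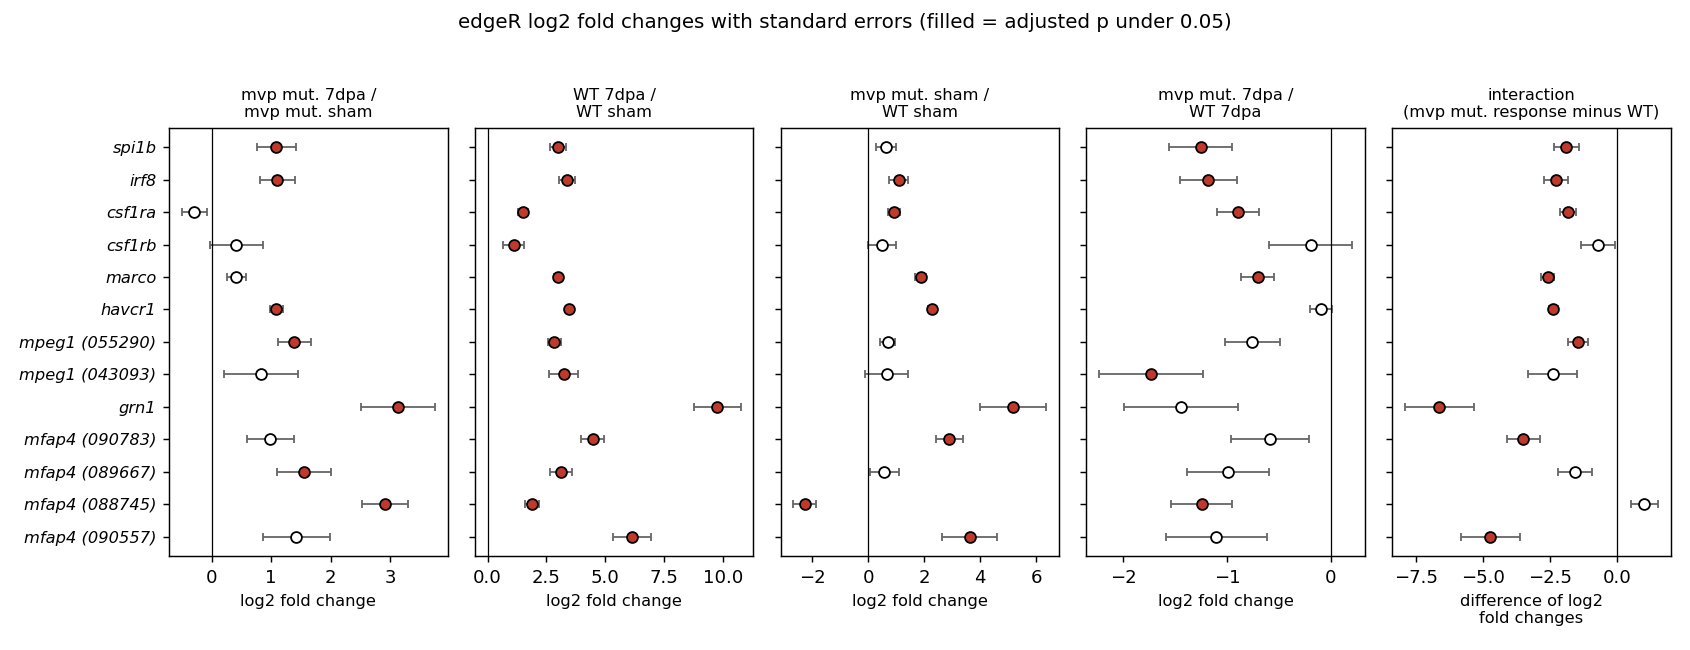
Fold changes of the 13 tested markers on a log2 scale in 4 comparisons, and the difference between both injury responses in the last panel. Bars are standard errors, filled points have an edgeR adjusted p under 0.05 and open points do not. All 13 points are filled for WT 7dpa over WT sham, and mfap4 ENSDARG00000088745 is the one marker to the left of 0 for mvp mutant sham over WT sham.

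The transcription factors stand at the head of the lineage. Spi1b, a zebrafish PU.1 that drives myeloid fate, had 13.6, 13.3 and 12.96 CPM in mvp mutant 7dpa libraries, against 6.51, 6.01 and 6.24 CPM in mvp mutant sham libraries. In WT hearts it had 13.1, 40.2 and 41.9 CPM at 7dpa, against 3.44, 3.997 and 4.58 CPM after sham surgery. Injured and sham libraries did not overlap in either genotype, and WT 7dpa replicate 1 lay within the range of the mvp mutant 7dpa libraries. Its log2 fold change after injury was 1.08 ± 0.33 (SE) in mvp mutants (edgeR adjusted p = 0.0267) and 2.98 ± 0.34 in WT (edgeR adjusted p = 8.6e-06), and the difference of -1.90 ± 0.47 passed the test (edgeR adjusted p = 0.00751). The mvp mutant call was lost when any 1 of the 6 mvp mutant libraries was left out.

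Irf8 is the factor without which zebrafish precursors form neutrophils in place of macrophages. It had 12.02, 9.99 and 11.2 CPM in mvp mutant 7dpa libraries, against 5.74, 4.70 and 5.04 CPM in mvp mutant sham libraries. In WT hearts its level was 12.2, 30.2 and 33.1 CPM at 7dpa, against 2.95, 1.89 and 2.47 CPM after sham surgery. The sham groups did not overlap, with mvp mutants higher by 1.09 ± 0.34 on the log2 scale (edgeR adjusted p = 0.0177), a call lost without WT sham replicate 2 or mvp mutant sham replicate 1. At 7dpa mvp mutants were lower by the test, with a log2 fold change of -1.18 ± 0.28 (edgeR adjusted p = 0.00975), and -1.54 without WT 7dpa replicate 1. With the 2 groups fitted alone this call was lost (edgeR adjusted p = 0.0785). The injury response was 1.1 ± 0.30 in mvp mutants and 3.38 ± 0.32 in WT.

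Among the receptors, csf1ra was the one marker whose fitted response had opposite signs. It encodes a receptor for Csf1 and Il34 that macrophages need, and in zebrafish it is also used by yellow pigment cells. Its level was 5.85, 5.90 and 7.61 CPM in mvp mutant 7dpa libraries, against 8.57, 7.63 and 7.59 CPM in mvp mutant sham libraries, with overlapping ranges and a fold change of -0.30 ± 0.21 on the log2 scale that did not pass the test (edgeR adjusted p = 0.329). In WT libraries it was 7.54, 13.8 and 14.8 CPM at 7dpa, against 4.24, 4.09 and 4.22 CPM after sham surgery. Each WT 7dpa library was above each WT sham library, and the rise of 1.52 ± 0.22 passed the test (edgeR adjusted p = 5.13e-05). The difference between both responses was -1.82 ± 0.30 (edgeR adjusted p = 0.000535). The second copy, csf1rb, had 15 to 19 counts in mvp mutant 7dpa, 8 to 12 in mvp mutant sham, 17 to 30 in WT 7dpa and 3 to 13 in WT sham libraries. Its WT fold change of 1.11 ± 0.45 lay just inside the threshold (edgeR adjusted p = 0.0488) and was 0.81 without WT 7dpa replicate 1 (edgeR adjusted p = 0.131), and its groups differed in no other comparison by the test.

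Marco, a scavenger receptor that binds bacteria and modified lipoproteins, passed the test in each comparison except that of injury in mvp mutants. It had 24.7, 23.7 and 29.1 CPM in mvp mutant 7dpa libraries, against 20.6, 17.02 and 20.5 CPM in mvp mutant sham libraries. In WT it had 30.4, 49.6 and 46.7 CPM at 7dpa, against 4.89, 6.11 and 4.79 CPM after sham surgery. No pair of groups compared overlapped, but the mvp mutant injury response of 0.41 ± 0.17 on the log2 scale missed the threshold (edgeR adjusted p = 0.0833), while the WT response was 2.998 ± 0.18 (edgeR adjusted p = 3.23e-08). Between sham groups mvp mutants were higher by 1.88 ± 0.19 (edgeR adjusted p = 2.91e-06). At 7dpa the fold change was -0.71 ± 0.16 (edgeR adjusted p = 0.00883), a call lost with the 2 groups fitted alone (edgeR adjusted p = 0.0625).

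Havcr1, whose mammalian counterpart TIM-1 binds phosphatidylserine on dying cells, had overlapping levels in both injured groups. It had 21.2, 18.1 and 21.8 CPM in mvp mutant 7dpa libraries, against 9.59, 10.2 and 8.97 CPM in mvp mutant sham libraries. WT libraries had 19.5, 22.5 and 23.3 CPM at 7dpa, against 1.83, 1.80 and 2.32 CPM after sham surgery. The log2 fold change after injury was 1.09 in mvp mutants (edgeR adjusted p = 2.1e-05) and 3.46 in WT (edgeR adjusted p = 4.6e-10). Between the injured groups, that of mvp mutants over WT was -0.10 ± 0.11 (edgeR adjusted p = 0.569). The sham groups did not overlap, with mvp mutants higher by 2.28 ± 0.14 (edgeR adjusted p = 2.61e-08). Of the 12 markers that were lowest in WT 7dpa replicate 1, havcr1 was the least affected, since that library had 0.852 of the mean of the other WT 7dpa libraries.

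Main mpeg1 (ENSDARG00000055290) encodes perforin-2, a pore-forming protein that macrophages use against engulfed bacteria and whose promoter is a standard macrophage reporter in zebrafish. It had 106, 106 and 100.3 CPM in mvp mutant 7dpa libraries, against 41.1, 40.1 and 37.8 CPM in mvp mutant sham libraries. In WT libraries it had 78.8, 225 and 223 CPM at 7dpa, against 25.2, 23.5 and 24.7 CPM after sham surgery. All injured libraries were above all sham libraries of either genotype. The log2 fold change after injury was 1.39 ± 0.28 in mvp mutants (edgeR adjusted p = 0.00259) and 2.84 ± 0.29 in WT (edgeR adjusted p = 3.11e-06), with a difference of -1.45 ± 0.39 (edgeR adjusted p = 0.0115). Neither genotype comparison passed the test with all libraries, although the sham groups did not overlap (log2 fold change 0.70 ± 0.28, edgeR adjusted p = 0.0562). At 7dpa the value was -0.76 ± 0.27 (edgeR adjusted p = 0.0644), and it was -1.13 and past the threshold without WT 7dpa replicate 1. The copy ENSDARG00000043093 had 11 to 25 counts in mvp mutant 7dpa, 5 to 13 in mvp mutant sham, 22 to 93 in WT 7dpa and 3 to 8 in WT sham libraries, and it was called in both comparisons that hold the WT 7dpa group against another group. Its 7dpa difference between genotypes, -1.73 ± 0.50, was lost without either WT 7dpa replicate 2 or 3 or any 1 mvp mutant 7dpa library.

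Grn1, a granulin gene, had the widest range of all the markers. Granulins are cysteine-rich peptides made from progranulin, a secreted protein that also works in lysosomes. Grn1 had 74.6, 70.1 and 81.1 CPM in mvp mutant 7dpa libraries, against 8.36, 8.34 and 9.07 CPM in mvp mutant sham libraries. In WT 7dpa it had 26.1 CPM in replicate 1, 299 CPM in replicate 2 and 289 CPM in replicate 3, whereas WT sham libraries had 7, 3 and 4 counts. No WT sham library came near any other library. The fitted log2 fold change after injury was 3.13 ± 0.63 in mvp mutants (edgeR adjusted p = 0.00268) and 9.76 ± 1.0 in WT (edgeR adjusted p = 3.14e-06), the second against a group with a few counts per library. In mvp mutant sham hearts grn1 was higher than in WT sham hearts by 5.19 ± 1.18 (edgeR adjusted p = 0.0026).

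The ratio of grn1 counts to main mpeg1 counts within a library does not depend on its depth. It was 0.706, 0.664 and 0.808 in mvp mutant 7dpa libraries, against 0.203, 0.208 and 0.24 in mvp mutant sham libraries. In WT hearts the ratio was 0.33, 1.33 and 1.30 at 7dpa, against 0.0149, 0.00561 and 0.00833 after sham surgery. For spi1b the ratio to main mpeg1 lay between 0.126 and 0.188 in all 12 libraries. It was 0.126 to 0.129 in mvp mutant 7dpa libraries, below every library of the other groups. Those had 0.15 to 0.165 in mvp mutant sham, 0.166 to 0.188 in WT 7dpa and 0.136 to 0.185 in WT sham hearts. For csf1ra it was 0.0554 to 0.0758 in mvp mutant 7dpa, 0.19 to 0.208 in mvp mutant sham, 0.0612 to 0.0957 in WT 7dpa and 0.168 to 0.174 in WT sham libraries, so that it was lower in injured than in sham hearts of both genotypes without overlap.

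**Figure D3:**
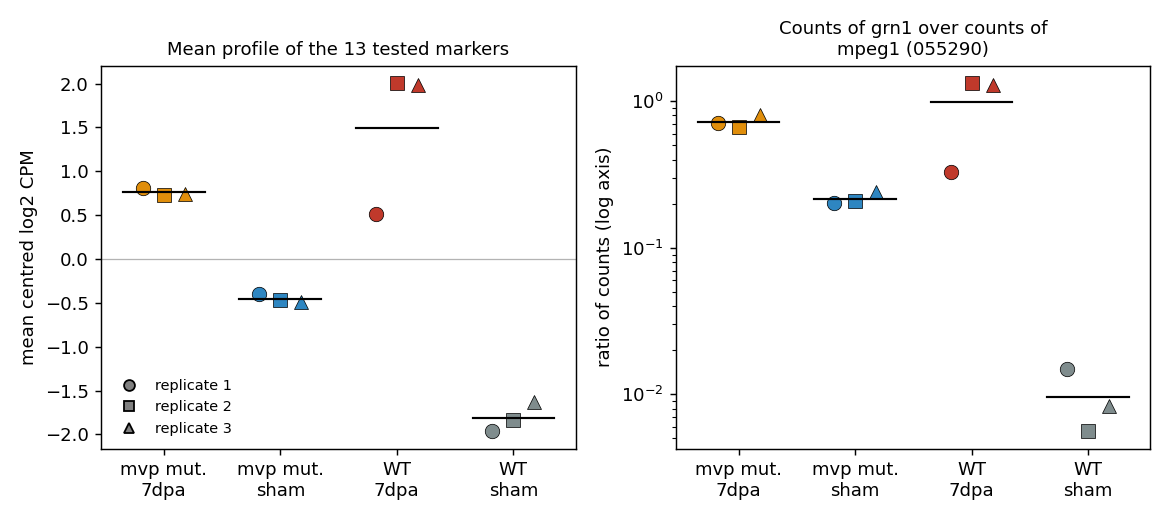
On the left, the mean over the 13 tested markers of their log2 CPM, each centred on its mean over the 12 libraries. On the right, counts of grn1 divided by counts of main mpeg1 on a log axis. Points are libraries and lines are group means (n = 3). The WT sham libraries have the lowest ratios, between 0.00561 and 0.0149, and WT 7dpa replicate 1 has 0.33, below the mvp mutant 7dpa libraries.

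The mfap4 family, fibrinogen-related proteins whose mammalian member binds extracellular matrix and of which a zebrafish copy is used as a macrophage marker, did not act as a unit. Copy ENSDARG00000090783 had 34.5, 32.6 and 31.0 CPM in mvp mutant 7dpa libraries, against 16.98, 13.9 and 18.6 CPM in mvp mutant sham libraries. WT libraries had 15.4, 67.6 and 64.7 CPM at 7dpa, against 1.93, 3.08 and 1.49 CPM after sham surgery. The sham groups were far apart, with mvp mutants higher by 2.91 ± 0.49 on the log2 scale (edgeR adjusted p = 0.000306).

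Copy ENSDARG00000088745 went the other way in sham hearts. It had 6.51, 5.61 and 6.17 CPM in mvp mutant 7dpa libraries, against 0.923, 0.96 and 0.555 CPM in mvp mutant sham libraries. In WT libraries it had 6.60, 19.6 and 17.3 CPM at 7dpa, against 3.87, 4.22 and 3.60 CPM after sham surgery. All mvp mutant sham libraries were below all WT sham libraries, with a log2 fold change of -2.27 ± 0.40 (edgeR adjusted p = 0.000448). It was the one marker whose fitted injury response was larger in mvp mutants, at 2.91 ± 0.39 against 1.89 ± 0.31 in WT, a difference of 1.02 ± 0.51 that did not pass the test (edgeR adjusted p = 0.137). Without WT 7dpa replicate 1 that difference was 0.66 (edgeR adjusted p = 0.0275).

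The other tested copies had fewer counts. ENSDARG00000089667 had 6.13 to 7.56 CPM in mvp mutant 7dpa, 2.15 to 2.498 CPM in mvp mutant sham, 3.95 to 18.5 CPM in WT 7dpa and 1.02 to 1.84 CPM in WT sham libraries. ENSDARG00000090557 had 81 to 88 counts in mvp mutant 7dpa, 13 to 33 in mvp mutant sham, 51 to 336 in WT 7dpa and 0 to 4 in WT sham libraries. Both were called higher at 7dpa in WT, and the first also in mvp mutants, where the call was lost in 5 of the 6 fits that left out an mvp mutant library. The 4 copies that were not tested had at most 43 counts in any library. Of these, ENSDARG00000116066 had 0 or 1 counts in each mvp mutant library and 3 to 11 in each WT library.

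The 7 numbered mfap4 copies that the symbol mfap4 did not match (mfap4.4 and mfap4.6 to mfap4.11) differed between genotypes more than between injury and sham, mfap4.4 excepted. In mvp mutant sham hearts 6 of the 6 tested were higher than in WT sham hearts, and at 7dpa 5 of 6 were higher than in WT. The shares of all genes called higher were 25.3% between sham groups and 8.94% at 7dpa. Mfap4.7 averaged 6.26 CPM in mvp mutant 7dpa and 5.11 CPM in mvp mutant sham hearts, against 0.395 CPM in WT 7dpa and 0.263 CPM in WT sham hearts. Between sham groups it was higher in mvp mutants by 4.25 ± 0.21 on the log2 scale, followed by mfap4.11 at 3.90 ± 0.27, mfap4.10 at 3.23 ± 0.58 and mfap4.8 at 2.1 ± 0.16. The injury responses of the tested copies in mvp mutants lay between 0.25 and 1.02 and did not pass the test, whereas mfap4.4 rose by 3.65 ± 0.60 in WT. Mfap4.11 was also called higher after injury in WT, at 1.13 ± 0.32. Mfap4.6 and mfap4.8 were called lower there, at -1.37 ± 0.29 and -0.83 ± 0.18.

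The markers' common course was summarised as their mean centred log2 CPM. The closest markers to it over the 12 libraries were irf8, with a root mean square difference of 0.238 log2 units, main mpeg1 with 0.276 and spi1b with 0.328. The farthest were grn1 with 2.27 and mfap4 ENSDARG00000088745 with 1.27, and the median of all genes tested was 1.34. Each marker is part of the mean it is compared with, so its closeness is partly built in. Among 15851 other genes with a symbol the 10 closest were rac2 (0.139), grna (0.171), glipr2 (0.177), fcer1gl (0.182), MYO1F (0.187), lifrb (0.204), ctss2.1 (0.209), gbp1 (0.211), sftpbb (0.221) and gja13.2 (0.23). Rac2, a small GTPase of blood cells, averaged 16.5 CPM in mvp mutant 7dpa and 7.57 CPM in mvp mutant sham hearts, against 34.9 CPM in WT 7dpa and 3.42 CPM in WT sham hearts.

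Ligands of the Csf1 receptor were present in every group. Csf1a averaged 7.997 ± 0.50 CPM (SD, n = 3) in mvp mutant 7dpa and 4.79 ± 0.34 CPM in mvp mutant sham hearts, against 4.27 ± 0.10 CPM in WT 7dpa and 0.648 ± 0.29 CPM in WT sham hearts. It was thus higher in mvp mutants than in WT in both states, by 0.90 ± 0.17 on the log2 scale at 7dpa and by 2.86 ± 0.23 after sham surgery, and both passed the edgeR test. Il34, the other ligand, averaged 21.1 CPM in mvp mutant 7dpa and 15.8 CPM in mvp mutant sham hearts, against 32 CPM in WT 7dpa and 14.8 CPM in WT sham hearts. At 7dpa the fitted differences between genotypes were therefore opposite for csf1a and csf1ra, and il34 went in the direction of csf1ra, by -0.60 ± 0.15. In WT 7dpa replicate 1, however, il34 (22.0 CPM) and csf1ra (7.54 CPM) lay within the ranges of the mvp mutant 7dpa libraries. These were 19.6 to 22.3 CPM and 5.85 to 7.61 CPM. With the 2 groups fitted alone the csf1ra difference missed the threshold (edgeR adjusted p = 0.0784). Csf1b had 2 to 15 counts and was not tested.

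Other myeloid transcription factors rose in WT hearts after injury in 8 of 8 tested, and in mvp mutant hearts in 3 of 8 (cebpa, mafba and mafbb, by 0.74, 0.40 and 0.61 on the log2 scale). For these and the phagocyte genes below, the share of all genes called higher was 31.6% in WT and 12.9% in mvp mutants. In WT the largest changes were in cebpb (3.93 ± 0.34), tfec (3.47 ± 0.47), spi1a (2.93 ± 0.28) and runx1 (2.36 ± 0.52). Between sham groups 5 of 8 factors were higher in mvp mutants, against 25.3% of all genes. They were led by cebpb, a factor of myeloid cells and of acute inflammation, at 2.88 ± 0.33. Phagocyte adaptor and oxidase genes were called higher in 11 of 11 tested in WT, led by hck (4.19 ± 0.58), ncf4 (4.08 ± 0.64), cybb (3.33 ± 0.45) and ncf1 (3.31 ± 0.57). In mvp mutants 5 of 11 were called higher, among them cyba (1.44 ± 0.45), cybb (1.44 ± 0.43) and plek (1.09 ± 0.30). Cyba, cybb, ncf1 and ncf4 encode parts of the oxidase that makes reactive oxygen in phagocytes. When WT 7dpa replicate 1 was left out, the numbers called higher after injury were 7 of 8 factors and 10 of 12 phagocyte genes in mvp mutants, and 8 of 8 and 12 of 12 in WT. That fit called 20.8% of all genes higher in mvp mutants and 35.2% in WT.

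Complement C1q genes are expressed by macrophages in many tissues. C1qa, c1qb and c1qc rose at 7dpa by 0.81 ± 0.16, 0.88 ± 0.15 and 0.95 ± 0.19 on the log2 scale in mvp mutants and by 2.75 ± 0.17, 2.94 ± 0.16 and 3.05 ± 0.20 in WT, each past the edgeR threshold. Over all genes, 12.9% were called higher in mvp mutants, and 31.6% higher and 27.8% lower in WT. Of the 13 C1q and scavenger genes tested, 6 were higher at 7dpa in mvp mutants, and 9 were higher and 3 lower in WT. Those lower in WT were slc40a1, the iron exporter ferroportin, stab1, a clearance receptor also of endothelium, and timd4, a receptor for dying cells on resident macrophages, at -1.48, -0.47 and -0.98.

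Genes of tissue macrophages and microglia were higher at 7dpa in 4 of 11 tested in mvp mutants and in 11 of 11 in WT. The fit without WT 7dpa replicate 1 called 9 of 12 higher in mvp mutants and 12 of 12 in WT. Of all genes, 12.9% in mvp mutants and 31.6% in WT were called higher with that library, and 20.8% and 35.2% without it. Apoeb, a lipid carrier made by microglia and other macrophages and by other tissues, did not share the markers' pattern. It averaged 80.7 CPM in mvp mutant 7dpa and 5.64 CPM in mvp mutant sham hearts, against 83.0 CPM in WT 7dpa and 6.21 CPM in WT sham hearts. Its injury response was 3.84 ± 0.11 on the log2 scale in mvp mutants and 3.74 ± 0.11 in WT, and the difference of 0.10 ± 0.15 did not pass the test. Apoc1 had 4 to 11 counts in mvp mutant 7dpa and 8 to 15 in WT 7dpa libraries, against 0 or 1 in all sham libraries. Lgals9l1 (4.24 ± 0.55), ms4a17a.8 (4.16 ± 0.68) and slc7a7 (3.91 ± 0.31) led the rest in WT.

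Among the other granulin genes, grn2 (listed as grna.2) was still more uneven than grn1 among WT 7dpa libraries. It had 116 counts in WT 7dpa replicate 1, 31950 in replicate 2 and 39152 in replicate 3, against 15 to 20 counts in WT sham libraries. In mvp mutants it had 1144 to 1285 counts at 7dpa, against 197 to 232 after sham surgery. Grna rose in both genotypes, by 1.1 ± 0.34 on the log2 scale in mvp mutants and 3.65 ± 0.37 in WT, and grnb rose by 0.97 ± 0.13 in WT. In mvp mutants grnb had a value of 0.10 ± 0.13 that missed the threshold. Of the inflammatory products tnfa, il1b and il6 had at most 19 counts in any library and were not tested. Il10 was not tested either, with 59 and 63 counts in WT 7dpa replicates 2 and 3 and at most 6 in the other libraries. Tnfb, a tumour necrosis factor, averaged 4.59 CPM in mvp mutant 7dpa and 1.25 CPM in mvp mutant sham hearts, against 22 CPM in WT 7dpa and 2.21 CPM in WT sham hearts. It rose by 1.87 ± 0.51 on the log2 scale in mvp mutants and 3.31 ± 0.46 in WT, and was lower in mvp mutants at 7dpa, at -2.26 ± 0.42. Arg2, an arginase, was higher in mvp mutants in both states, by 0.90 ± 0.06 at 7dpa and 1.91 ± 0.06 after sham surgery. Acod1, an enzyme of activated macrophages that makes itaconate, had 1.82 CPM in WT 7dpa replicate 1, 92.2 CPM in replicate 2 and 89.95 CPM in replicate 3, and averaged 5.70 CPM in mvp mutant 7dpa hearts.

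Markers of other cells moved with the macrophage markers in part. Over all genes, 12.9% were called higher after injury in mvp mutants and 31.6% in WT, and 10.6% lower in mvp mutants than in WT at 7dpa. Genes of all leukocytes were higher at 7dpa in 6 of 6 tested in both genotypes, with a summed level of 204 to 212 CPM in mvp mutant 7dpa, 95.9 to 100.4 CPM in mvp mutant sham, 185 to 425 CPM in WT 7dpa and 48.7 to 56.2 CPM in WT sham libraries. B lymphocyte markers summed to 16.3 to 19.2 CPM in mvp mutant 7dpa libraries and 9.85 to 11.4 CPM in mvp mutant sham libraries. In WT they summed to 14.9 CPM in 7dpa replicate 1, 170.4 CPM in replicate 2 and 175 CPM in replicate 3, against 5.77 to 6.50 CPM after sham surgery. Of the 6 B lymphocyte genes tested, 4 were called higher after injury in WT and 1 in mvp mutants. Between sham groups 1 was called higher and 1 lower in mvp mutants (25.3% and 24.2% of all genes). Their median there was -0.73 on the log2 scale, so the higher sum does not describe most of these genes. T and NK lymphocyte markers summed to 5.93 to 9.24 CPM in mvp mutant 7dpa and 3.84 to 4.56 CPM in mvp mutant sham libraries. In WT they summed to 7.19, 19.6 and 20.1 CPM in 7dpa replicates 1, 2 and 3, against 1.93 to 2.68 CPM after sham surgery, and 5 of 6 tested were called higher, led by zap70 (4.49 ± 0.47). Proliferation genes were called higher after injury in 6 of 6 tested in both genotypes, and lower in mvp mutants at 7dpa in 5 of 6. In WT 7dpa replicate 1, then, lymphocyte and macrophage markers were both low relative to replicates 2 and 3, and their part in the results was not tested.

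Neutrophil markers were scarce, with summed levels of 2.36 to 8.66 CPM over all libraries and 0 to 19 counts of lyz, while mpx had no match in the table of gene names. Of the 3 genes tested, mmp9 and mmp13a, proteases that neutrophils and other cells make, were called higher after injury in both genotypes. Mmp9 rose by 1.32 ± 0.31 on the log2 scale in mvp mutants and 1.04 ± 0.30 in WT. Npsn was called after injury in neither genotype, with -1.06 ± 0.45 in WT (edgeR adjusted p = 0.0571). Between sham groups it was lower in mvp mutants, at -1.84 ± 0.50 (edgeR adjusted p = 0.00751). The difference between both injury responses of npsn was 2.26 ± 0.67 (edgeR adjusted p = 0.0202), opposite in sign to that of most macrophage markers. Erythroid markers moved otherwise, at 958 to 1052 CPM in mvp mutant 7dpa, 478 to 494 CPM in mvp mutant sham and 284 to 355 CPM in WT sham libraries, and at 783, 290.4 and 304 CPM in WT 7dpa replicates 1, 2 and 3. Epicardium and fibroblast markers were also highest in WT 7dpa replicate 1, at 1002 CPM against 642 and 633 CPM in replicates 2 and 3. Cardiomyocyte markers, which define the labelled tissue, summed to 45910 to 83010 CPM. That sum was lower at 7dpa than after sham surgery in both genotypes, without overlap. Of the 5 genes tested, 2 were called lower in mvp mutants, and 3 lower and 1, nppa, higher (0.39 ± 0.08) in WT. The shares of all genes called lower were 13.4% in mvp mutants and 27.8% in WT. Whether the make-up of the tissue collected differed between libraries was not tested.

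**Figure D4:**
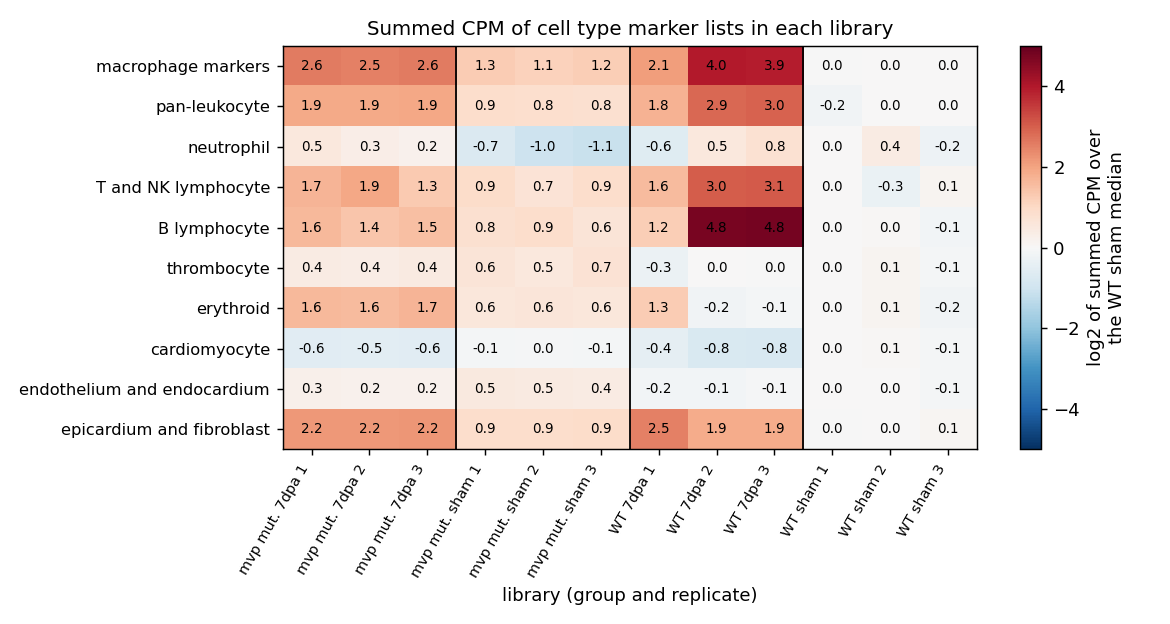
Summed CPM of 10 marker lists in the 12 libraries, as log2 of the ratio to the median of the WT sham libraries. Red is higher and blue lower, and each cell prints its value. In WT 7dpa replicate 1 the macrophage and B lymphocyte rows are far below replicates 2 and 3, and the erythroid row is above them.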

How the data were processed

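The authors aligned reads of ventricle RNA (low-input NEBNext kit) with HISAT2 2.1.0 to GRCz11, counted them per Ensembl gene with featureCounts 1.6.0 and deposited whole-number counts without normalization, 1 table per library. The annotation release and the treatment of strand and of reads with several matches are not given in the sources used here, so reads of near-identical or antisense genes may be shared.

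The model was fitted with edgeR 4.0.16 under R 4.3.3 (filterByExpr by group, TMM factors of 0.854 to 1.185, a mean per group over all 12 libraries). Each comparison was a quasi-likelihood contrast with Benjamini-Hochberg adjustment over 16604 genes, called at an adjusted p under 0.05. Standard errors were derived from the F statistic. CPM are scaled by TMM, and log2 CPM used a prior count of 2. Symbols came from a table that named 29201 genes.

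The members and lists were chosen with earlier results of these data known. Named genes are the members, up to 4 genes per other list with the largest called changes, markers of other cells that move with a member, and the 10 genes nearest the members' mean profile. One gene that this rule names is not reported here. Names that matched several genes were left out of the other lists. Stab1, timd4 and slc40a1 (in WT after injury) were named after their values were seen. Alternatives were DESeq2 1.42.0 (size factors and Wald test), no filter, only the groups compared, a replicate block, removal of the 20 genes with most counts and mitochondrial genes, and leaving out each library. Depth limits genes with a few counts, and floors cover counting error only.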

Additional observations from a re-analysis of the deposited data

Results flagged for a closer look

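The injury response differed between genotypes, by the interaction test in edgeR, for 9 of the 13 tested markers. All 9 had the smaller response in mvp mutants. Of all genes, 19.9% had a called difference in this direction and 15.2% in the other. The difference between mvp mutant and WT log2 fold changes was -6.63 for grn1, -4.73 for mfap4 ENSDARG00000090557 and -3.49 for mfap4 ENSDARG00000090783. It was -2.58 for marco, -2.37 for havcr1, -2.27 for irf8, -1.90 for spi1b, -1.82 for csf1ra and -1.45 for mpeg1 ENSDARG00000055290. Grn1 and mfap4 ENSDARG00000090557 had few counts in WT sham libraries and passed the filter through other groups. The size of their differences is therefore uncertain, and the number called is a description. Each of the 9 was called in the same direction without WT 7dpa replicate 1. That fit called 28% of all genes in this direction and 21.9% in the other. Groups of 3 libraries were not tested for single outlying values.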

How the results depend on the processing

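The number of markers called after injury in WT was 12 to 13 of 13 when 1 library was left out, that between sham groups 7 to 11 and that in the interaction 9 to 12. In mvp mutants it was 4 to 11, and between genotypes at 7dpa 5 to 11. At 7dpa between genotypes, 0 were called with only the groups compared, 9 without a filter on low counts and 7 by DESeq2's Wald test (8 and 6 of the 13, besides mfap4 ENSDARG00000116066), and the cause was not tested. The fit with only the groups compared called 1403 of 16012 genes. For the no-filter and DESeq2 fits, and most fits without 1 library, that share is not given here, so their counts are a description. With DESeq2's size factors or without the 20 genes with most counts, every one of the 5 numbers was as in the report. Single log2 fold changes were followed only when a library of the groups compared was left out. Of these, 433 kept direction and side of the threshold, 25 lost the call and 9 gained it. In 1 the sign changed, that of csf1rb at 7dpa between genotypes, which ranged from -0.41 to 0.098. Calls that changed when a library of another group was left out, as with WT 7dpa replicate 1 for injury in mvp mutants, are not in these numbers. Under the other alternatives 349 kept both, 11 lost and 15 gained the call, and 0 changed sign. No pairing by replicate number was seen, as deviations of equally numbered libraries correlated by -0.0489 to 0.06 and those of others by -0.0629 to 0.0477. Whether equally numbered libraries were handled together cannot be told from groups of 3 libraries. A replicate block gave 12 calls in WT, 7 in mvp mutants, 8 between sham groups, 5 between genotypes at 7dpa and 9 in the interaction. Depth limits csf1rb, mpeg1 ENSDARG00000043093 and grn1 and mfap4 ENSDARG00000090557 in WT sham hearts.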
